A study of Homo sapiens with 23 samples.

Results

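Kuramochi is an established cell line of high-grade serous ovarian carcinoma, and its prexasertib-resistant form was compared here with the parental line across the transcriptome. The 6 Kuramochi libraries, 3 parental and 3 resistant, were those whose columns in the expression table carry the name of the line, out of 23 libraries in all. The other 17 libraries come from OV-90, OVSAHO and EFO-21, also parental and resistant, and are used below only to ask whether a Kuramochi change differs from theirs. Prexasertib is an inhibitor of the checkpoint kinase CHK1, and each resistant line was selected by raising the drug concentration step by step in culture. The concentration reached by Kuramochi, and whether drug was present at harvest, are not given in the sources used here. The libraries are labelled as biological replicates. Whether the 3 resistant ones come from 1 selection or from several is not given in the sources used here, so the p-values below measure only the spread between these cultures.

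CHK1, encoded by CHEK1, is activated by ATR when replication forks stall. It holds back the CDC25 phosphatases, and with them CDK1 and CDK2, so that cells neither fire too many origins nor enter mitosis with unreplicated DNA. A Mullerian-type epithelial program, with PAX8, WT1, EMX2 and MECOM among its transcription factors and claudins and keratins among its products, marks ovarian serous tumours.

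Values are the deposited log2 expression values of 21658 genes, which the authors quantile normalized over the libraries. A difference of 1 is 2-fold. Read counts are not in the table, so depth is unknown, and the spread between libraries is the measure of error. A gene is called when its adjusted p in limma is under 0.05 and its change is at least 2-fold. The lowest 10% of values in each library, with an upper limit of 1.70 to 1.86 in these 6, are called the bottom of the range, where a log2 difference is not a measured fold change.

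In resistant against parental cells 4865 of 21658 genes were called (22.5%), 2563 higher (11.8%) and 2302 lower (10.6%). Of these, 859 changed by 3 or more on the log2 scale, 422 upward and 437 downward. The median change over all genes was -0.02. Across genes, Pearson's r was 0.971 to 0.978 among the parental libraries and 0.982 to 0.986 among the resistant ones, but 0.889 to 0.895 between the states, against 0.905 to 0.949 in OV-90, 0.953 to 0.960 in OVSAHO and 0.942 to 0.946 in EFO-21. The resistant libraries remained nearer to parental Kuramochi than to any library of another line, the nearest of which was resistant OVSAHO at 0.791 to 0.795. The change was also set against the mean change of the other 3 lines, in a fit of 23 libraries. Of the called genes, 3781 (77.7%) differed from that mean in the direction of their call, 2010 upward and 1771 downward. The difference test called 13.1% of all genes higher and 12.7% lower. Both tests use the same 6 Kuramochi libraries, so a gene called in the first is likely to be called in the second, and the overlap is no independent support.

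Ovarian epithelial markers fell in the resistant cells. Of 18 measured markers of an ovarian epithelial cancer line, 12 were lower (66.7%, against 10.6% of all genes) and 0 higher, with a median change of -2.04. PAX8, the lineage factor of the Mullerian duct, fell by less than 2-fold, from 9.50, 9.27 and 9.35 to 8.70, 8.72 and 8.68 (change -0.67). It was not called, though the groups did not overlap. The markers of other cell types moved in both directions: 3 of 9 fibroblast markers were higher and 4 lower, 1 of 6 endothelial markers higher and 2 lower, 1 of 6 haematopoietic markers higher and 1 lower, 3 of 8 neural markers higher and 2 lower, and 1 of 3 melanocyte markers higher. The mean log2 value over the fibroblast list was 4.85 to 5.46 in the parental and 4.48 to 4.65 in the resistant libraries. PECAM1, the endothelial junction protein, lay at the bottom in each of the 6 libraries, between 0.53 and 0.86. CDH5, the endothelial marker called higher, went from a mean of 4.75 to 7.62. In parental library 6, CD3E of T cells was 3.10 and COL1A2 of fibroblasts 5.11, against at most 0.02 and 0.59 in the other parental libraries. The part of such signals in the results was not tested. In bulk RNA, fewer cells of a type and less RNA per cell cannot be told apart.

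The largest rises were of genes at or near the bottom in the parental cells. SHISA3, an antagonist of WNT and FGF receptors, was 1.21, 1.87 and -0.29 in the parental libraries and 9.31, 9.71 and 9.58 in the resistant ones (change 8.60, SE 0.53, adjusted p = 7.51e-05 in limma). CDH13, the cadherin that lacks a cytoplasmic domain, rose from 0.64, 1.86 and 0.73 to 9.21, 9.27 and 8.96. POU3F3, a POU-domain factor of the developing brain and kidney, rose from 1.42, 2.88 and 3.01 to 10.53, 10.46 and 10.34. In these genes the lowest resistant library lay more than 7 log2 units above the highest parental one. TGFBI, a secreted matrix protein induced by TGF-beta, rose from 1.60, 1.52 and 1.61 to 9.30, 9.03 and 9.11. ANGPTL4, an inhibitor of lipoprotein lipase that is also induced by hypoxia, rose from 1.78, 1.70 and 1.56 to 8.75, 8.71 and 8.82, and HOXC13, a posterior homeobox factor, from -0.29, 2.16 and 1.77 to 8.99, 9.19 and 9.03. CRISPLD1 and STAC, an adaptor of muscle calcium channels, followed with changes of 7.14 and 7.02. MKX, a tendon homeobox factor, and ODAD2, a protein of ciliary dynein docking, are neighbours on chromosome 10 and rose together, by 7.92 and 7.98. ODAD2P1, a pseudogene of ODAD2, and the gene with ID 101060015, for which no symbol was found, rose by 7.41 and 7.58. Reads of ODAD2 and its pseudogene could have been divided between near-identical copies, so these values are uncertain.

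The 12 largest falls follow in the same way. LIN28B, an RNA-binding protein that blocks the maturation of let-7 microRNAs, fell from 11.76, 11.25 and 11.01 to 3.18, 2.40 and 2.83 (change -8.54, SE 0.26, adjusted p = 8.36e-06 in limma), a resistant level that was low but above the bottom. IGF2, the fetal growth factor, fell from 11.12, 10.29 and 10.25 to 3.47, 3.59 and 3.21. INS-IGF2, a readthrough transcript that shares exons with IGF2, fell by 7.10, and the 2 genes cannot be taken as separate results. EMX2, a homeobox factor of the urogenital tract, was 9.38, 9.38 and 9.35 in the parental libraries and 1.02, 1.02 and 1.76 in the resistant ones. Its antisense transcript EMX2OS fell by 7.37, and whether the authors counted by strand is not given in the sources used here. RIPPLY1, a co-repressor of somite formation, fell by 8.11, KCNJ5, a potassium channel, by 7.72, PART1 by 7.36 and DACH1, a nuclear co-repressor, by 7.25. CHODL, a membrane lectin, ARMCX2 and GUCY1A1, a subunit of soluble guanylate cyclase, fell by 6.94, 6.79 and 6.76. The resistant libraries were all at the bottom for 7 of these 12 genes.

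**Figure D1:**
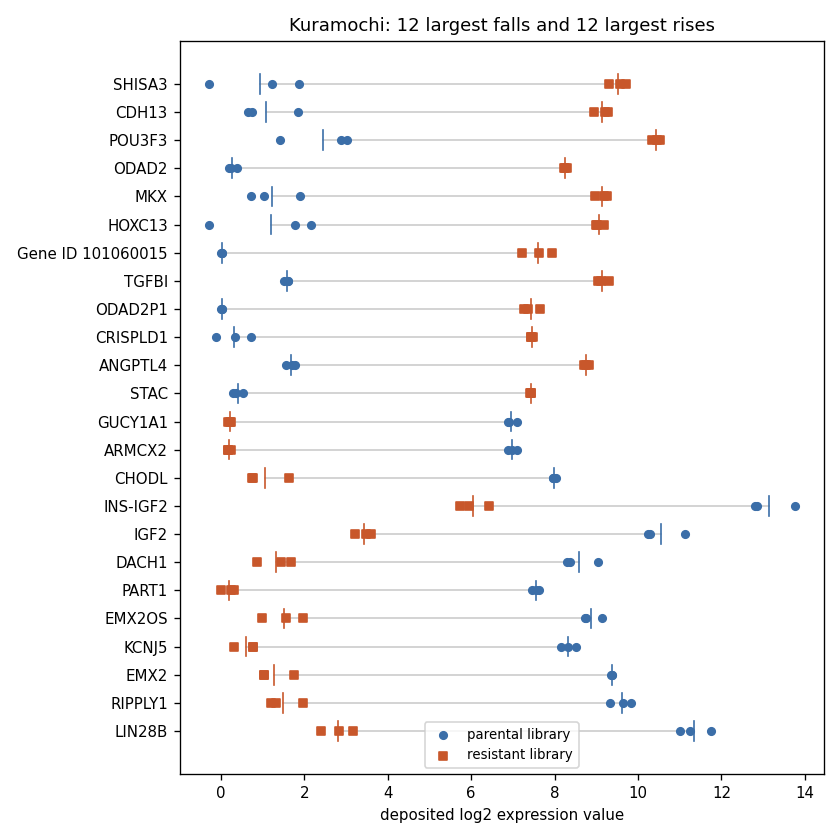
Deposited log2 expression value (x axis) of the 12 genes that fell most and the 12 that rose most in resistant Kuramochi, by the naming rule. Circles are the 3 parental libraries, squares the 3 resistant ones and short bars the group means; for SHISA3 the parental libraries lie between -0.29 and 1.87 and the resistant ones between 9.31 and 9.71.

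With the bottom defined as above, 16 genes were switched on, meaning that the 3 parental libraries were at the bottom and the 3 resistant ones above their own median, and 27 were switched off. Besides genes named above, those switched on included PSG5 and PSG9, pregnancy-specific glycoproteins of the placenta, DYSF, the membrane repair protein dysferlin, EDA2R, a receptor of the tumour necrosis factor family, and RASGRF1, an exchange factor for RAS. Those switched off included the NODAL antagonists LEFTY1 and LEFTY2, elastin (ELN), LSAMP, LMO3, BCL11A, FOLH1, LTB, the WNT effector LEF1 and MECOM. These genes were chosen by the switch definition, and their count depended on where the bottom was set, with 7 on and 4 off at the 5th percentile and 63 on and 98 off at the 20th.

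The target of the drug rose. CHEK1 was 6.65, 6.79 and 6.81 in the parental libraries and 9.37, 9.42 and 9.34 in the resistant ones, a change of 2.63 (SE 0.07, adjusted p = 6.25e-06 in limma). The groups did not overlap. In OV-90, OVSAHO and EFO-21 the change of CHEK1 was -0.10, 0.07 and 0.04, and the difference between Kuramochi and their mean was 2.63 (SE 0.07, adjusted p = 1.77e-15 in limma). CHEK1 was the 1 gene called of 19 measured in the ATR-CHK1 pathway, whose median change was -0.06. ATR, which activates CHK1, went from a mean of 7.36 to 7.41. CLSPN, encoding the claspin adaptor, went from 7.91 to 7.63 and CHEK2 from 6.64 to 6.29, neither of them called.

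CHEK1 did not rise alone on its chromosome. It lies on chromosome 11 at chr11:125495058-125546150 (GRCh37, plus strand). Of 34 measured genes that start within 1 Mb of its start, 30 were higher and 0 lower, with a median change of 2.44. The median value over these genes was 5.18, 5.28 and 5.19 in the parental libraries and 7.31, 7.36 and 7.37 in the resistant ones. In the other lines the median change of the same genes was -0.05 (OV-90), 0.10 (OVSAHO) and 0.25 (EFO-21). The rise took in genes of unrelated function. FEZ1, an axonal transport protein, went from 1.66, 2.55 and 2.31 to 8.53, 8.55 and 8.67, and ROBO3, a SLIT receptor of commissural axons, from 1.96, 2.01 and 1.66 to 7.23, 7.29 and 7.45. STT3A, the catalytic subunit of oligosaccharyltransferase, rose by 1.93, HYLS1, a centriole protein, by 2.97, and TIRAP, an adaptor of Toll-like receptors, by 2.51. PKNOX2 within the same stretch was not called, at a change of -0.57.

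Lower genes followed the higher stretch directly, while before it the fall was milder and most genes were not called. Runs were found as stretches in which the running median change over 15 neighbouring genes was at least 1 in either direction, trimmed to the outermost called genes, so the run from VWA5A to SENCR held 39 genes, of which 34 were higher and 0 lower. Directly after it, from KCNJ1 to B3GAT1, 19 of 27 genes were lower and 0 higher, with a median change of -1.57. That second run holds KCNJ5, ST14 (matriptase, an epithelial membrane protease, -4.97) and APLP2 (-1.17). On the other side, ZNF202, the gene next before VWA5A, changed by -0.30 and was not called. Between 2 and 10 Mb upstream of CHEK1, 24 of 91 genes were lower and 1 higher, with a median of -0.72. Between 10 and 20 Mb upstream, 11 of 61 were lower and 5 higher, with a median of -0.63. DNA copy number was not analysed here, and no test was made of neighbouring genes, which are not independent.

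**Figure D2:**
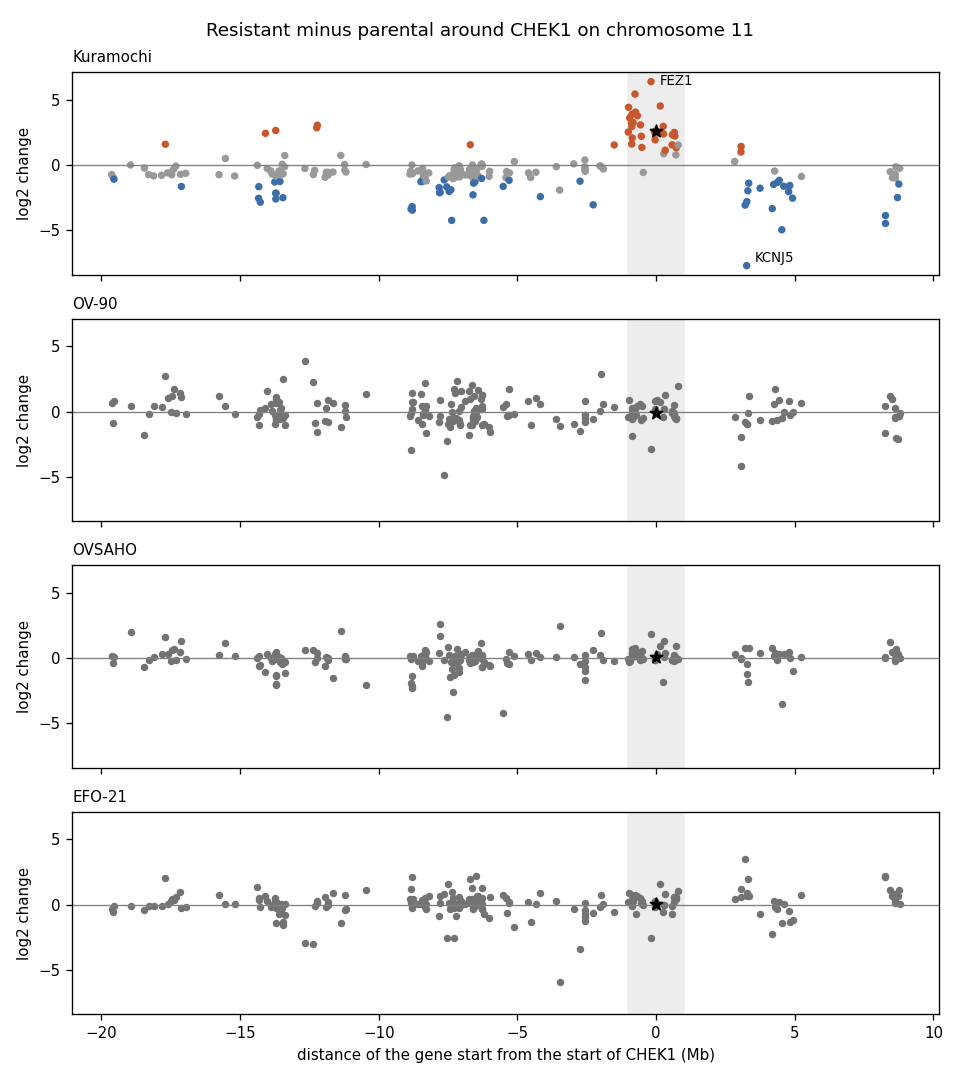
Change in log2 value, resistant minus parental (y axis), of genes within 20 Mb of CHEK1, against the distance of their start from that of CHEK1 (x axis, Mb), in each of the 4 lines. In the Kuramochi panel called genes are coloured by direction and others are grey, while in the other panels calls are not marked; the star is CHEK1 and the shaded band spans 1 Mb to each side, where 30 of 34 genes were higher in Kuramochi.

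Other chromosomes also moved as blocks. Chromosome 13 had 126 of 364 genes lower (34.6%) and 19 higher (5.22%), with a median change of -0.73, while the median in OV-90, OVSAHO and EFO-21 was 0.05, -0.00 and 0.05. Its longest run, from RBM26-AS1 to CHAMP1, held 104 genes, with 63 lower, 4 higher and a median of -1.48. TFDP1, the dimerization partner of E2F factors, is in that run and fell from 7.18, 7.34 and 7.28 to 5.75, 5.69 and 5.56. MIR17HG, the host transcript of an oncogenic microRNA cluster, fell from a mean of 8.79 to 7.62. Chromosome X moved the other way, with 217 of 802 genes higher (27.1%) and 59 lower (7.36%) and a median change of 0.49. On chromosome 7, 30 of 46 genes from FAM20C to RBAKDN were higher and 0 lower. On chromosome 21, 12 of 19 genes from BAGE2 to LINC00158 were lower and 0 higher, with a median of -2.27. On chromosome 8, 9 of 16 genes around CRISPLD1, from LY96 on, were higher. In all there were 31 higher and 20 lower runs, some of them gene clusters (HOXC, protocadherin, histone and zinc finger genes). With genes expressed above the median gene in their higher group, 15 higher and 6 lower runs were left. They included the runs on chromosomes 7, 13, 21 and X and the higher run around CHEK1, but not the lower run from KCNJ1 to B3GAT1.

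**Figure D3:**
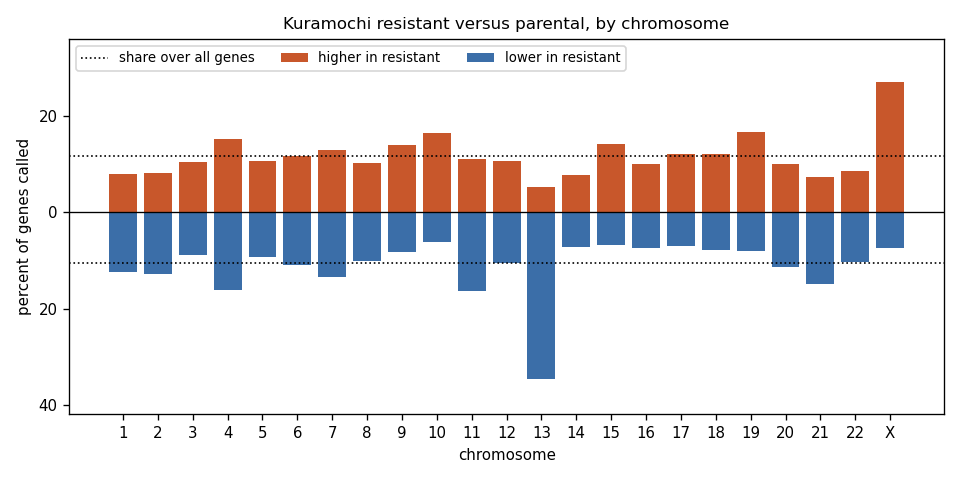
Percent of the genes of each chromosome called higher (upward) and lower (downward) in resistant Kuramochi. Dotted lines are the shares over all genes, 11.8% and 10.6%; chromosome 13 stands out with 34.6% lower and chromosome X with 27.1% higher.

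Few cell cycle and replication genes reached the 2-fold change that a call needs. Of 51 replication fork genes 0 were called (median change -0.06), with changes from -0.93 to 0.88. In limma, 23 (45.1%) of them had an unadjusted p under 0.05, against 54.5% of all genes. MCM2, a subunit of the replicative helicase, went from a mean of 9.90 to 9.61, MCM7 from 9.83 to 9.82 and MCM10 from 7.32 to 7.16. RPA1, the single-strand binding protein, went from 9.27 to 9.79. The adjusted p in limma was 0.0186 for MCM2, 0.915 for MCM7, 0.155 for MCM10 and 0.00171 for RPA1. Of 26 genes of the CDK switch and mitotic entry, CDK1 was higher, from 8.73, 8.70 and 8.59 to 9.69, 9.73 and 9.63. Its change of 1.01 lay at the 2-fold threshold, and the call was lost without parental library 6 or resistant library 17. CDK1 opens a higher run on chromosome 10, to JMJD1C-AS1, with 8 of 14 genes higher, 0 lower and a median of 1.01. WEE1, the kinase that inhibits CDK1, changed by 0.05, CCNE1 by -0.25, CCNA2 by -0.83 and CDC25A by -0.82. All were under 2-fold, with an adjusted p in limma of 0.61, 0.0234, 0.000209 and 0.000957, in that order. Of 39 spindle checkpoint and kinetochore genes, MAD1L1 was higher (1.20), and it lies in the run on chromosome 7. Of 42 homologous recombination and Fanconi genes, 1 was lower, SHLD1 of the shieldin complex (-1.13), a call lost without parental library 5. BRCA1 changed by 0.24 (SE 0.14) and BRCA2 by -0.07 (SE 0.32).

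Of 25 G1 cyclins, CDK inhibitors and RB family genes, 4 were higher (16%) and 3 lower (12%), near the shares of all genes (11.8% and 10.6%). E2F5, a repressor-type E2F factor, fell from 7.69, 7.78 and 7.90 to 3.11, 3.32 and 3.14. CDKN2C, which encodes the CDK4 and CDK6 inhibitor p18, rose from 6.62, 6.87 and 6.40 to 9.51, 9.48 and 9.52. The other inhibitors called were CDKN1C (p57, 2.81), CDKN2B (p15, 1.46) and CDKN1A (p21, 1.07), and E2F2 fell (-1.22). For CDKN1A the difference from the other lines, 0.75, was under 2-fold. MYC changed by 0.39 and was not called. EDA2R, which binds an isoform of ectodysplasin, rose by 6.97, from 1.17, 1.21 and 0.89 to 8.02, 8.24 and 7.92.

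Epithelial junction genes fell as a group. Of 43 measured junction and polarity genes, 24 were lower (55.8%, against 10.6% of all genes) and 2 higher, with a median change of -1.55, and 21 of the 24 fell more than in the other lines on average. The median over the 43 genes was 6.22, 6.45 and 6.34 in the parental libraries and 3.72, 3.50 and 3.81 in the resistant ones. CLDN4, a tight junction claudin, fell from 11.61, 11.51 and 11.66 to 6.89, 6.86 and 7.19. DSP, the desmosomal plaque protein desmoplakin, fell from 8.27, 7.39 and 7.38 to 3.22, 3.50 and 2.74. EPS8L1, an actin regulator, and SMIM22, a small membrane protein, each fell by 5.77 from group means of 6.45 and 6.50. Their mean change in the other 3 lines was -2.15 and -3.13, a smaller fall. CDH1, encoding E-cadherin, was already low in the parental cells, at 4.88, 4.58 and 4.38, and fell to the bottom at 1.72, 1.65 and 1.47. The exceptions were CDH3, encoding P-cadherin, which rose by 1.30, and the desmosomal gene PKP3, which rose by 1.60 from the bottom. The same direction held in the transcription factors that keep epithelial identity, 9 of 21 lower and 0 higher, including ELF3 (-3.43), the splicing factor ESRP2 (-2.09) and GRHL2, which went from 3.19, 2.64 and 3.60 to 0.00, 1.32 and 0.00. Of 18 keratins, 8 were lower and 1 higher, and 5 of the 8 fell more than in the other lines on average. With low values left out, which leaves fewer genes to test, 3 keratins and 5 epithelial factors were lower. KRT19 fell from 8.32, 8.71 and 8.71 to 4.83, 4.47 and 4.56, while KRT5 and KRT17 fell by 5.91 and 5.33. The mean change of the other 3 lines was also a fall, -1.22 for KRT19, -2.47 for KRT5 and -2.92 for KRT17. All 3 genes fell further in Kuramochi. KRT6A fell by 4.53, but it fell in OV-90 and OVSAHO as well, by 4.59 and 7.27, and the difference of -0.43 between Kuramochi and the mean of the other lines was not called.

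The promoters of 4 of the fallen epithelial genes are shown as examples of a known repressor motif. They were drawn only from genes whose window holds it, so its presence in them is no result. CACCTG, or CAGGTG on the other strand, is the E-box bound by the repressors ZEB1, ZEB2, SNAI1 and SNAI2. It is in capitals in these 300-base windows, which run from 250 bases before to 50 after the start (RefSeq, GRCh38.p14). The windows are CLDN7 chr17:7262429-7262728 on the minus strand, DSP chr6:7541421-7541720, SMIM22 chr16:4788147-4788446 and ELF3 chr1:202010337-202010636 on the plus strand.
CLDN7: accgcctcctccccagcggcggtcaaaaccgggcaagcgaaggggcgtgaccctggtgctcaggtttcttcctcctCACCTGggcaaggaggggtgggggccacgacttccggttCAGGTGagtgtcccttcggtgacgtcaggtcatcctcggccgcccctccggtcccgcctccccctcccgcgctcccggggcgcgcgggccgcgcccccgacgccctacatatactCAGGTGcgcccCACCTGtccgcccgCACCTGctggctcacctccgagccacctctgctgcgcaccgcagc
DSP: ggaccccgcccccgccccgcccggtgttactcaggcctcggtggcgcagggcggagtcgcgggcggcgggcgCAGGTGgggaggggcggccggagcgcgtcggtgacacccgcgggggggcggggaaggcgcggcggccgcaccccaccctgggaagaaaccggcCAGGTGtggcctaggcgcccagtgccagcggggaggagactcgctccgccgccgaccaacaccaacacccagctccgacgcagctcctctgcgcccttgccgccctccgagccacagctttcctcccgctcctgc
SMIM22: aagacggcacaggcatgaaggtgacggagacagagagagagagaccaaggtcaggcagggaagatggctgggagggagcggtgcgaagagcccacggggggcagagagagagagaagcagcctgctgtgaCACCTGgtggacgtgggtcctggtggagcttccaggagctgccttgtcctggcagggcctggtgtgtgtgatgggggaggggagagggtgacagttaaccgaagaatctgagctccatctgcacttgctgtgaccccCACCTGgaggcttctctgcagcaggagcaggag
ELF3: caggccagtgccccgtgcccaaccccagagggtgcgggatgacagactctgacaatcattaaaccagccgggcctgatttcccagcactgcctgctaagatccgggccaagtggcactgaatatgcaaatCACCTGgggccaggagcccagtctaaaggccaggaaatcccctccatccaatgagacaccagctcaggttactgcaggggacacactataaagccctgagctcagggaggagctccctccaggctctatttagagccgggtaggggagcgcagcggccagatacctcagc
Of the epithelial junction and factor genes called lower, 17 of 33 had a promoter entry, and 11 of these (64.7%) held the E-box. It was present in 20.6% of all promoters, in 24.7% of genes measured here and in 31.1% of all genes called lower. Of the epithelial genes that were not called lower, 14 of 21 (66.7%) held it. CLDN7, chosen after its values were seen because its window held 5 copies, fell from 6.27, 6.53 and 6.61 to 2.56, 2.48 and 2.38.

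Mesenchymal genes rose more often than they fell. Of 32 EMT factors and mesenchymal markers, 12 were higher (37.5%) and 4 lower, with a median change of 0.59. VIM, the intermediate filament vimentin, rose from 11.51, 11.67 and 11.68 to 13.50, 13.52 and 13.50, and FN1, fibronectin, from 12.53, 11.74 and 11.70 to 15.02, 14.97 and 14.33. CNN1, a smooth muscle calponin, rose by 5.10, TWIST2 by 4.16, the hyaluronan receptor CD44 by 4.10 and FOXC2 by 3.41. Of the E-box repressors, ZEB2 rose from a mean of 6.05 to 7.53 and SNAI1 from 8.77 to 9.88, both called, while SNAI2 (0.69) and ZEB1 (0.56, adjusted p = 0.143 in limma) were not. CDH2, encoding N-cadherin, was 8.96, 8.57 and 8.56 in the parental libraries and 8.66, 8.74 and 8.46 in the resistant ones, and the groups overlapped. THY1, S100A4 and TAGLN, also counted as mesenchymal, changed by -4.24, -4.12 and -1.26. Their falls ran against the name of the list.

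**Figure D4:**
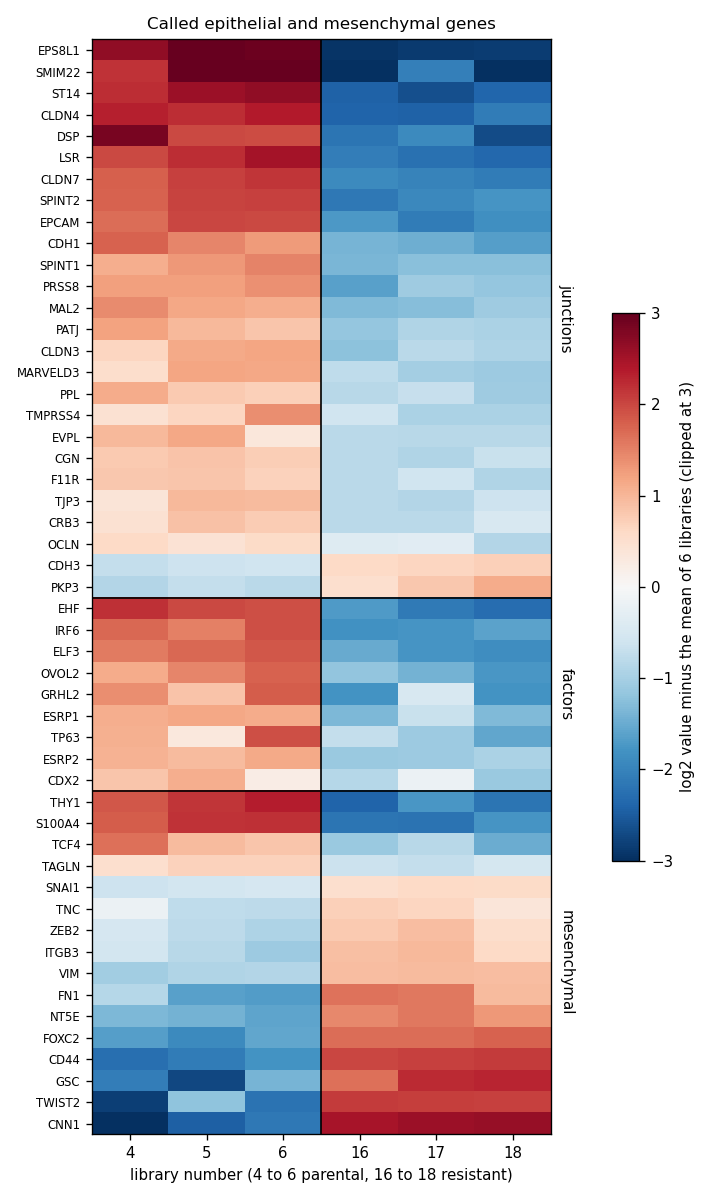
Log2 value of each called member of the junction list (top), the epithelial factor list (middle) and the mesenchymal list (bottom) in the 6 Kuramochi libraries, as the difference from the mean of the 6 (colour, clipped at 3). Only called genes are drawn; 24 of the 26 junction genes and the 9 factors are lower in libraries 16 to 18, while 12 of the 16 mesenchymal genes are higher.

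Matrix genes were remodelled in both directions. Of 56 collagens and matrix glycoproteins, 23 were higher (41.1%) and 13 lower (23.2%). EFEMP1, encoding fibulin-3, rose from 3.91, 3.65 and 3.39 to 9.91, 9.89 and 9.77, COL13A1 rose by 3.84 and COL15A1 by 4.16. BGN, the proteoglycan biglycan, fell from 6.46, 6.53 and 6.59 to 1.07, 1.97 and 1.44, and COL3A1, FBN2 and LAMB3 fell by 1.95, 2.00 and 2.68. Of 44 proteases, inhibitors and crosslinkers 16 were higher and 4 lower. The metalloprotease ADAM12 rose from 5.12, 4.41 and 4.41 to 10.42, 10.50 and 10.36. MMP2, a gelatinase, and its inhibitor TIMP2 rose together, by 1.79 and 2.03.

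Mullerian lineage factors were called lower more often than all genes. Of 35 Mullerian and gonadal transcription factors, 13 were lower (37.1%, against 10.6% of all genes) and 4 higher (11.4%, against 11.8%). MECOM fell from 7.05, 6.67 and 6.50 to 1.49, 1.47 and 1.60, WT1 from 8.05, 7.95 and 7.89 to 5.80, 5.65 and 5.71, and EYA1 by 2.80. BNC1 and OSR1 rose, by 1.88 and 1.47. Of 35 neural-type factors 7 were higher and 11 lower, or 2 and 6 with low values left out. SOX11 fell from 10.12, 9.91 and 9.88 to 4.08, 4.29 and 3.78, while TFAP2C rose by 3.50. DLX5 rose by 1.27, but its call was lost in the fit of 23 libraries. HOX genes moved in both directions, 12 of 38 higher (31.6%) and 11 lower (28.9%). HOXA9, a factor of the fallopian tube segment, fell by 2.34 and HOXD1 by 2.52, while HOXC13 and HOXA4 rose by 7.86 and 4.81. In the HOXC cluster, 8 of 9 genes from HOXC13-AS to HOXC-AS1 were higher and 0 lower, with a median of 3.18. Their median value was low in the parental libraries, at 0.83, 2.16 and 1.77, and 5.70, 5.55 and 5.87 in the resistant ones. An overlapping run from HOXC4 to PPP1R1A went the other way, with 8 of 15 genes lower, 0 higher and a median of -1.13.

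LIN28B had the largest fall of the genes of its axis. The let-7 microRNAs whose maturation it blocks share a seed, bases 2 to 8, in capitals here (RefSeq, GRCh38.p14).
let-7a-5p: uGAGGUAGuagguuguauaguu
let-7b-5p: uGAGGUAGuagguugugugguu
let-7c-5p: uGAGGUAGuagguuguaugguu
These libraries did not measure mature microRNAs. Of the host transcripts, MIRLET7BHG rose from 3.77, 2.76 and 4.02 to 5.48, 5.77 and 5.65, and MIR99AHG, in the lower run of chromosome 21, fell from 5.43, 5.61 and 5.66 to 2.79, 2.50 and 3.27. Of 29 genes of the axis, including known let-7 targets, 5 were higher and 8 lower, with a median of -0.37. HMGA2, a chromatin protein and let-7 target, fell by 1.53 and PLAG1, an activator of IGF2, by 2.81. LIN28A, the paralogue of LIN28B, rose from 1.25, 1.44 and 2.38 to 3.56, 3.49 and 4.04, a low level.

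Immune genes rose in part. Of 39 genes of MHC class I, the immunoproteasome and checkpoint ligands 13 were higher (33.3%) and 0 lower, each of the 13 also called higher than in the other lines. With low values left out 7 were higher, and with robust linear model genes alone 8. PDCD1LG2, encoding the PD-1 ligand PD-L2, rose from 3.96, 4.47 and 4.56 to 9.73, 9.95 and 9.86, and CD274, encoding PD-L1, from 5.42, 5.48 and 5.33 to 7.08, 7.01 and 6.96. HLA-B rose by 1.80 and ULBP2, a ligand of NKG2D on natural killer cells, by 2.55. HLA genes are variable and alike, so reads may have been shared among them. Of 62 interferon-stimulated genes, 15 were higher (24.2%, against 11.8% of all genes) and 6 lower (9.68%, against 10.6%). APOBEC3B, a cytidine deaminase, rose from 3.74, 3.90 and 3.88 to 9.39, 9.52 and 9.63, and the 2-5A synthetase OAS1 from 3.58, 3.31 and 3.65 to 6.22, 6.14 and 6.49. BST2, tetherin, fell from 8.81, 9.12 and 9.27 to 3.91, 3.94 and 4.32. IFIT1 (-1.05) and IFITM1, just past 2-fold, were also called lower, and both calls were lost when single libraries were left out. Of 38 genes of nucleic acid sensing and interferon production 7 were higher and 2 lower. TLR4 went from 2.90, 1.70 and 0.03 to 6.57, 6.71 and 6.28, TLR6 from 5.26, 5.23 and 4.90 to 8.37, 8.38 and 8.23, and the adaptor MYD88 rose by 1.45.

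Inflammatory signalling genes were called higher more often than all genes. Of 49 genes of the NF-kappaB system, 14 were higher (28.6%, against 11.8% of all genes) and 6 lower (12.2%, against 10.6%). Their median change was 0.13. The cytokine IL6 rose from 4.70, 4.87 and 4.96 to 7.17, 6.91 and 7.20, and TNFSF9 and TNFAIP8 by 1.94 and 1.73. LTB, lymphotoxin beta, fell from 7.07, 7.38 and 7.54 to 0.91, 0.84 and 1.01, the chemokine CCL20 by 4.16 and the subunit RELB by 1.16. Of 43 genes of the IL6 family and JAK-STAT signalling, 11 were higher (25.6%) and 2 lower (4.65%). With low values left out, 7 were higher. CNTFR, a receptor of ciliary neurotrophic factor, rose by 3.63, IL7R by 2.57 and the kinase JAK2 by 1.61, while IL11RA and the phosphatase PTPN6 fell by 1.54 and 1.48.

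Of 63 receptor tyrosine kinases and ligands, 19 were higher (30.2%) and 19 lower (30.2%). DDR2, a collagen receptor, rose from 3.45, 2.57 and 2.57 to 8.82, 9.06 and 8.39, KIT from 4.61, 4.45 and 4.78 to 8.63, 8.81 and 8.40, and its ligand KITLG by 2.56. AXL, the receptor of GAS6, rose by 2.26. The fall of IGF2 is the largest in this list, while EPHB3 and FLT1 fell by 1.93 and 1.94. In the list of RAS-MAPK feedback and AP-1, 18 of 44 genes were higher (40.9%) and 5 lower (11.4%). Of the 18, 10 were also called higher than in the other lines on average. The median change was 0.26, against 0.53 in OV-90, 0.27 in OVSAHO and 0.01 in EFO-21. FOSL1, the AP-1 subunit FRA-1, rose from 4.72, 4.83 and 5.54 to 8.74, 8.64 and 8.71, KLF2 by 3.85, ATF3 by 2.35 and PHLDA1 by 2.03. The feedback inhibitors SPRY1, SPRY2 and DUSP6, which ERK signalling induces, fell by 2.38, 2.00 and 1.12.

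Developmental pathways held calls among ligands, receptors and antagonists. The shares over all genes were 11.8% higher and 10.6% lower. Of 55 TGF-beta and BMP genes 14 were higher (25.5%) and 9 lower (16.4%). The BMP antagonist NOG rose from 7.75, 8.20 and 8.41 to 11.63, 11.66 and 11.74, while BMP7 fell from 10.09, 10.10 and 10.16 to 6.38, 6.29 and 6.59. The receptor BMPR1B changed by -4.80 and the BMP target ID4 by -1.82. INHBA, a subunit of activin, rose by 5.26. In the WNT list 8 of 57 genes were higher (14%) and 14 lower (24.6%). LEF1 fell from a mean of 6.97 (SD 0.087) to 1.73, the resistant libraries at 1.70 to 1.76. It opens a lower run on chromosome 4, to CFI, with 5 of 13 genes lower and 0 higher. The receptor FZD10 fell by 5.28 and LGR5, which binds R-spondins, by 4.95. WNT5B, a ligand of the non-canonical branch, rose from 4.48, 4.52 and 4.50 to 9.41, 9.32 and 9.45 and DKK3 by 3.37. Of 34 Notch genes, 4 were higher (11.8%, the share of all genes) and 6 lower (17.6%). HEY2, HES4, NRARP and JAG1 fell by 3.88, 2.32, 2.11 and 1.67, and LFNG rose by 1.69. Of 38 YAP-TEAD targets 7 were higher (18.4%) and 4 lower (10.5%, near the share of all genes).

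Protocadherins split by genomic arrangement. Of 53 clustered protocadherins on chromosome 5, 21 were higher (39.6%) and 1 lower, with PCDHAC1 and PCDHA7 rising by 3.94 and 3.28 and PCDHB3 falling by 1.93. Genes of the alpha cluster share their last exons, so their values are not independent. Of 9 non-clustered protocadherins, 5 were lower and 0 higher, among them PCDH20, from 7.49, 6.82 and 6.98 to 0.00, 0.00 and 1.97, and PCDH10 (-4.72). Histone genes that are expressed in S phase and lack poly(A) tails also rose, 24 of 62 higher (38.7%) and 0 lower, with a median of 0.82. The median was also a rise in EFO-21 (0.92), but a fall in OV-90 (-1.07) and OVSAHO (-0.28). Of the 24, 18 were also called higher than in the other lines on average. H2BC8 rose from 7.24, 7.39 and 7.62 to 9.91, 9.95 and 9.95 and H2AC8 from 6.25, 6.47 and 6.78 to 9.16, 9.13 and 9.28. The libraries were made from poly(A) RNA, and many histone genes are near copies. With robust linear model genes alone, 7 were higher. The median over the 62 genes also varied among the parental libraries, at 4.89, 5.24 and 5.74, against 5.99 to 6.29 in the resistant ones, and the part of poly(A) capture was not tested.

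Genes listed as antigens of ovarian cancer, on the surface or secreted, were lower in part. Of 32, 14 were lower (43.8%) and 2 higher. The kallikreins KLK7, KLK6 and KLK8, which are secreted proteases, fell by 5.55, 4.73 and 4.32, and LYPD1 by 4.35. Their mean change in the other 3 lines was -1.40, -1.83, -0.51 and -1.92, in that order. L1CAM, an adhesion molecule, rose by 2.85. The folate receptor FOLR1 (-0.98, adjusted p = 0.0134 in limma) and mesothelin, MSLN (-0.91), stayed just under 2-fold.

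Metabolic and stress lists differed in their share of calls, which over all genes was 11.8% higher and 10.6% lower. Of 63 oxidative phosphorylation genes 2 were lower (3.17%), NDUFA5 and ATP5ME, and 0 higher, both calls lost when single libraries were left out. Of 30 cholesterol synthesis genes 8 were lower (26.7%) and 0 higher, among them HMGCS1, from 9.93, 9.60 and 9.52 to 7.85, 7.98 and 7.76, TM7SF2 (-1.55) and DHCR7 (-1.30). SCD fell by 1.19, a call lost without parental library 4. Of 31 genes of ATF4 and amino acid stress 8 were higher (25.8%) and 2 lower (6.45%), with NUPR1 rising by 3.72 and SLC7A5, an amino acid carrier, by 1.76. Of 32 NRF2 targets 7 were higher (21.9%), including the aldo-keto reductase AKR1C3 (1.89) and haem oxygenase HMOX1 (1.29), and 1 lower (3.12%). Of 47 hypoxia and glycolysis genes 6 were higher (12.8%, near the share of all genes) and 3 lower (6.38%). The glucose transporter SLC2A1 fell by 2.33 while the lactate exporter SLC16A3 rose by 3.27. Of 12 drug efflux transporters of the ABC family 3 were higher (25%) and 2 lower (16.7%), with ABCC3 (1.39) the 1 among the better expressed. Of 21 BCL2 family genes 2 were higher and 2 lower (9.52% each, near the shares of all genes). The pro-apoptotic HRK (3.14) and BOK (1.11) were higher. BIK (-1.47) and BCL2L11, which encodes BIM (-1.14), were lower.

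Of 62 cancer-testis genes 12 were higher (19.4%, against 11.8% of all genes) and 9 lower (14.5%, against 10.6%). With low values left out 0 and 3 were called. SSX2 and SSX2B rose by 2.60 and 2.56, and as near-identical copies they may have divided 1 set of reads. Of 7 endogenous retrovirus genes 2 were higher, and 0 with low values left out. Of 31 genes of DNA methylation and retroelement silencing 3 were lower (9.68%), among them the Polycomb subunits EED (-1.10) and EZH2 (-1.01). EZH2 lost its call without parental library 5 or 6 or resistant library 16 or 17. EED lies in a lower run of chromosome 11, from CCDC89 to SMCO4. With genes above the median gene only, EZH2 ends a lower run of chromosome 7. Of 16 S100 genes 6 were lower (37.5%) and 1 higher (6.25%), S100A1 falling by 3.67 and S100A6 rising by 1.47. Of 12 annexins 3 were lower (25%), ANXA3 by 2.10. Of 9 metallothioneins 1 was higher (11.1%). Of 42 MYC family and ribosome biogenesis genes 1 was higher (2.38%) and 3 lower (7.14%). Of 30 stem-state and aldehyde dehydrogenase genes 7 were higher (23.3%), among them ALDH1A3 (3.77), and 3 lower (10%). Among 21 other cadherins 3 were higher, with the endothelial cadherin CDH5 rising by 2.87, and 3 lower (14.3% each).

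**Figure D5:**
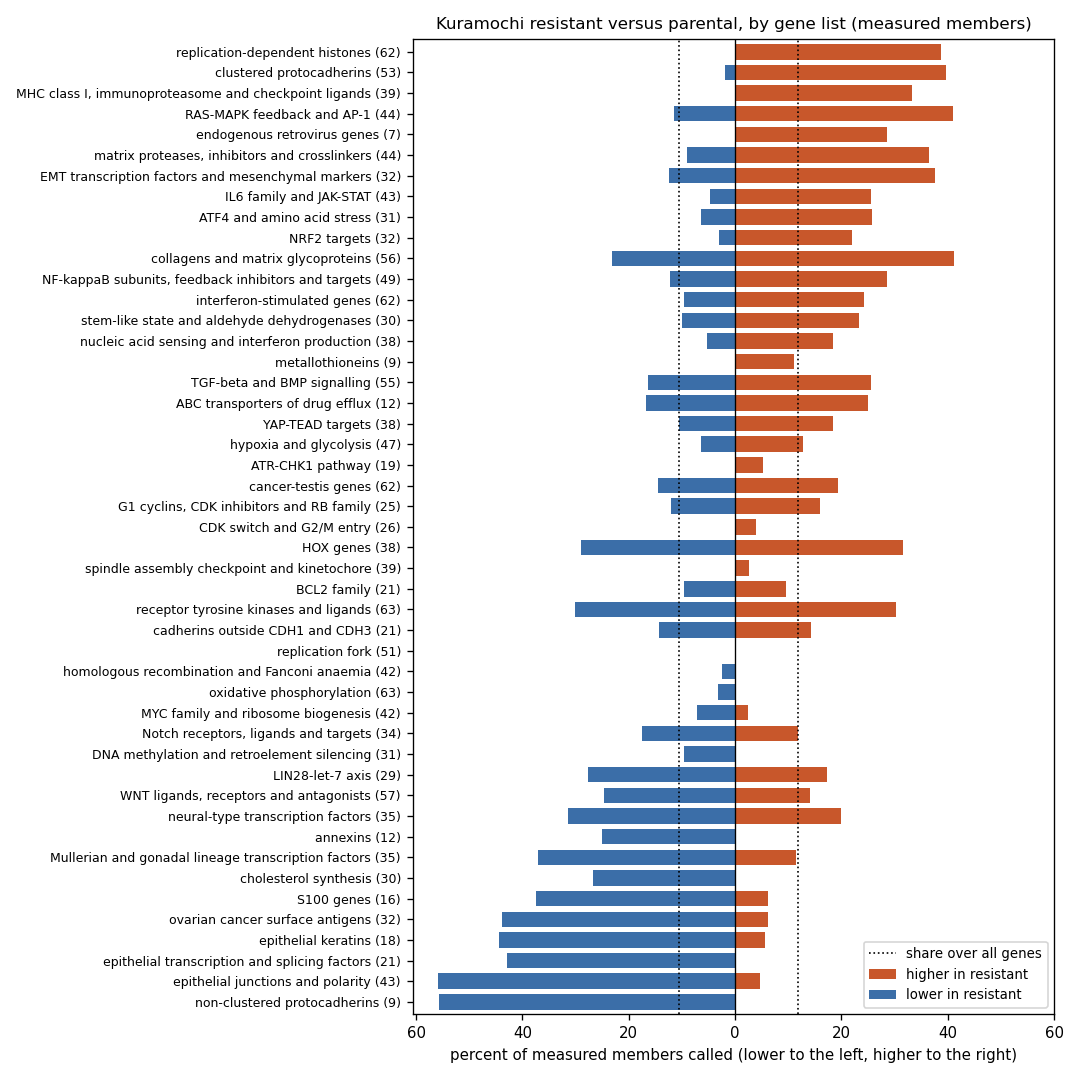
Percent of the measured members of each gene list shown called higher (right) and lower (left) in resistant Kuramochi, with the number of measured members in parentheses. Dotted lines are the shares over all genes, 11.8% higher and 10.6% lower; junction genes reach 55.8% lower and the replication fork list has no bar.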

How the data were processed

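RNA was sequenced from 6 Kuramochi cultures, 3 parental and 3 resistant, with a stranded poly(A) kit and paired reads. The deposited values are log2 expression values: the authors aligned reads to GRCh37 (hg19), left out exons with few reads in most samples, summarized exon and junction reads per gene with a robust linear model or, for other genes, as the mean log2 value of the exons, and quantile normalized the 23 libraries. The distributions are thus alike but not identical, with a 10th percentile of 1.70 to 1.86 in the 6 Kuramochi libraries. A shift common to all genes may have been removed and cannot be judged. The values are not counts, so depth is unknown. Of 21658 Gene IDs, 20745 (95.8%) matched a symbol, 913 kept their ID, and 19596 had a GRCh37 position.

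Change was tested with limma 3.58.1 (R 4.3.3; lmFit and eBayes with trend, Benjamini-Hochberg adjustment over all genes) on the 6 libraries, and the difference from the other lines on 23 libraries with 8 group means. An exact permutation of 3 against 3 cannot go below p = 0.1, so none was used for single genes. On simulated data the Kuramochi fit recovered 79.0% of 200 genes changed by 2 on the log2 scale. Of its 164 calls there, 6 (3.66%) were unchanged genes. The difference test recovered 84.5%, and 25 of its 194 calls (12.9%) were unchanged genes, above the nominal 5%. Tables and figures were made with Python 3.11.15, pandas 2.3.3 and matplotlib 3.10.9. Named genes were the 12 largest rises and 12 largest falls among called genes without overlap and with the higher mean above the median gene, up to 4 such genes a list and direction, fixed genes of the checkpoint and lineage, the 5 largest differences from the other lines in each direction, and genes of the runs described. Genes switched on or off, cell type markers, and PAX8, ATR, CLSPN, PKP3, ZEB2, SNAI1, SNAI2, CLDN7, LIN28A, FOLR1, MSLN and the microRNA host genes fell outside that rule and were chosen after their values were seen. Some genes under the rule are not reported here. The members, lists and rule were chosen with earlier results of these data known. Alternatives were a fit without trend, low values left out, recentred libraries, robust linear model genes only, 1 fit of 23 libraries, other fold thresholds and leaving out each library.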

Additional observations from a re-analysis of the deposited data

Results flagged for a closer look

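For 10 genes the change in Kuramochi differed from the mean change of the other 3 lines by the largest amounts in the difference test of limma. The differences, on the log2 scale, were -8.83 for INS-IGF2, -8.69 for GJA1, -8.65 for IGF2, -8.25 for EMX2 and -8.03 for LIN28B, and 7.88 for POU3F3, 8.11 for ODAD2, 8.42 for CDH13, 8.63 for TGFBI and 8.95 for MKX. GJA1, encoding the gap junction protein connexin 43, fell in Kuramochi from 9.96, 9.48 and 9.34 to 3.81, 1.55 and 3.30, while its change was 2.82 in OV-90, 4.06 in OVSAHO and -0.94 in EFO-21. TGFBI fell by 3.33 in EFO-21 and MKX by 3.98 in OVSAHO, where both rose in Kuramochi. With 3 libraries a group, single libraries that stand apart could not be tested.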

How the results depend on the processing

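The 2563 higher and 2302 lower calls became 1573 and 1434 with low values left out, 3934 and 3753 at 1.5-fold, and 5111 and 5047 with no fold threshold. Leaving out 1 library each gave 2376 to 2575 higher and 2173 to 2318 lower. The difference test's 2835 higher calls became 1760 with low values left out, and its 2835 and 2755 became 4382 and 4424 at 1.5-fold and 5798 and 5919 with no fold threshold. Leaving out 1 library gave 2662 to 2895 and 2506 to 2887 there. The 16 genes switched on and 27 off became 7 and 4 at the 5th percentile and 63 and 98 at the 20th. The 31 higher and 20 lower runs became 15 and 6 with genes above the median only. Of the called genes, 3795 (78.0%) kept their call under every alternative that tested them. Of 233 called genes named by the rule, 16 lost their call in at least 1 setting, 28 times in all, and 0 reversed. Of 96 list counts (48 lists, each direction), 41 moved by over 1.5 times in at least 1 setting, 68 times in all, 25 of them with low values left out and 7 with robust linear model genes alone. Reversals occurred in genes not called and near 0. With 1 library left out, MCM7 ran from -0.040 (without parental library 4) to 0.015 (without parental library 6), with 0.002 without resistant library 16 and 0.011 without resistant library 17. BRCA2 ran from -0.246 (without resistant library 17) to 0.210 (without parental library 4), with 0.126 without resistant library 18. CDH2 ran from -0.141 (without parental library 6) to 0.055 (without parental library 4), with 0.006 without resistant library 18. The cause was not tested. No paired analysis was possible because the columns carry library numbers and no replicate numbers. With 3 libraries a group and no read counts, precision rests on the spread between libraries alone.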
